A study of Mus musculus with 12 samples.

Results

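The miR-17-92 and miR-106b-25 clusters are paralogous groups of microRNAs (miRNAs), each cut from a single primary transcript. Their 9 members were the rows of the array named mmu-miR-17, mmu-miR-18a, mmu-miR-19a, mmu-miR-20a, mmu-miR-19b and mmu-miR-92a (miR-17-92) and mmu-miR-106b, mmu-miR-93 and mmu-miR-25 (miR-106b-25), 9 of the 375 miRNA assays. MiRNA levels were profiled in primary pulmonary endothelial cells on 12 TaqMan low-density arrays (TLDA), cards on which each well holds the PCR assay of one small RNA. The groups were unstimulated control cells, cells given Tri-DAP, a NOD1 ligand (the TD arrays of the labels), and cells given MDP, a NOD2 ligand, each at 10 μg/mL for 6 hours and each with 4 arrays. All cells came from lungs of male C57BL/6N wild type mice aged 6 to 10 weeks, 3 mice were pooled for an isolation, and the cells were selected with magnetic beads for CD144 and then CD31, grown to confluence and starved for 2 hours in low serum. The comparisons address which miRNAs change in endothelial cells when a cytosolic sensor of bacterial peptidoglycan is engaged.

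As background, a miRNA guides repression of mRNAs that pair with its seed, bases 2 to 8 from its 5′ end, so that members with one seed share most of their targets. The miR-17-92 transcript is induced by Myc and E2F factors, and its miRNAs promote proliferation and survival by repressing Cdkn1a and Bim. The cluster is known for its part in vessel growth. In endothelial cells miR-92a acts on the integrin subunit Itga5. MiR-18a and miR-19 act on the anti-angiogenic Ctgf and Thbs1. The miR-106b-25 hairpins lie within Mcm7, a gene of the replicative helicase, and are expressed with it in dividing cells.

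The 9 mature sequences are shown because they set both the seed families and how alike the assays' targets are. They were taken from RefSeq (GRCm38.p6) and are written 5′ to 3′ with the seed in capitals. All 9 members matched an entry, and the arm was taken from the miRNA nomenclature, since the assay names carry none. The miR-17-92 hairpins span 836 bases on the plus strand of chromosome 14, with the mature miRNAs in the order printed here.
miR-17 (chr14:115043684-115043706): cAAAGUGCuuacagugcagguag
miR-18a (chr14:115043867-115043889): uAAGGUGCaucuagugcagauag
miR-19a (chr14:115044048-115044070): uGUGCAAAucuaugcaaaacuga
miR-20a (chr14:115044183-115044205): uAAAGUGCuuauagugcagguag
miR-19b (chr14:115044358-115044380): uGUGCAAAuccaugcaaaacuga
miR-92a (chr14:115044476-115044496): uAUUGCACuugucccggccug

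The miR-106b-25 hairpins span 498 bases on the minus strand of chromosome 5 and lie within the protein-coding gene Mcm7.
miR-106b (chr5:138165787-138165807): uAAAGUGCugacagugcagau
miR-93 (chr5:138165574-138165596): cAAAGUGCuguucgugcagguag
miR-25 (chr5:138165332-138165353): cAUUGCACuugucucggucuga

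The 9 members carry 4 seeds. AAAGUGC is shared by miR-17, miR-20a, miR-106b and miR-93, AUUGCAC by miR-92a and miR-25, and GUGCAAA by miR-19a and miR-19b, while miR-18a alone has AAGGUGC. Counted from 1 at the 5′ end, miR-17 and miR-20a differ at 2 of 23 bases (C1U and C12U, miR-17 first), and miR-19a and miR-19b at 1 of 23 (U11C, miR-19a first). MiR-92a and miR-25 differ at 3 of the 21 bases compared (U1C, C14U and C18U, miR-92a first). The mature miR-19b and miR-92a are also encoded in the paralogous miR-106a-363 cluster on chromosome X, so that their Ct cannot be assigned to one locus. MiR-106a of that cluster differs from miR-17 at 1 base (U10A, miR-17 first), and how far the assay of one reads the other was not tested. Of the opposite arms, the array carried a rat assay for miR-17-3p, which was undetermined on all 12 arrays.

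All 9 members were measured on all 12 arrays, which 174 of the 375 miRNA assays were. The array reports the PCR cycle at which a well crosses the fluorescence threshold (Ct), so that more RNA gives an earlier Ct, and 1 cycle is a factor of 2 at full efficiency. Between 231 and 254 miRNAs were measured per array, and U6, the small nuclear RNA used as reference, lay between Ct 18.3 (TD array 14) and 21.6 (TD array 8). These are means of 4 wells, whose SD ran from 0.11 cycles on TD array 8 to 2.05 on MDP array 12. It was 1.93 on TD array 14 and 1.70 on MDP array 9, so values relative to U6 carry this spread of the reference. The endothelial miRNAs miR-126-3p and miR-126-5p were at Ct 18.6 to 20.6 and 20.1 to 22.4 over the 12 arrays. Control array 7, TD array 8 and MDP array 9, 1 of each group, stood apart from the other 9 for several members. The labels do not say which arrays share an isolation, and the members' fold changes and correlations are also given without these 3 arrays.

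In unstimulated cells the members of a cluster were measured at very different levels. Among the 192 miRNAs measured on every control array, ordered from the earliest Ct, miR-19b ranked 4 with a mean Ct of 22.2 and miR-17 ranked 13 with 23.9. MiR-19a (Ct 24.6, rank 19), miR-93 (25.2, rank 26), miR-20a (25.2, rank 28) and miR-92a (26.2, rank 37) followed. MiR-106b was at 27.8 (rank 61), miR-18a at 29.5 (rank 104) and miR-25 at 31.4 (rank 149). Ct values of different assays also differ by assay efficiency, so that these ranks order wells and not molecules.

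Over all 12 arrays the order of levels was miR-19b, miR-17, miR-19a, miR-20a, miR-93, miR-92a, miR-106b, miR-18a and miR-25. MiR-19b exceeded miR-17 by 1.49 ± 0.43 on the log2 scale (SD, n = 12) and did so on 12 of 12 arrays. The neighbouring pairs miR-93 over miR-92a, miR-92a over miR-106b and miR-106b over miR-18a also kept their order on 12 of 12 arrays, with mean log2 differences of 0.80, 1.69 and 1.86. MiR-17 exceeded miR-19a on 11 arrays, and miR-18a exceeded miR-25 on 10. The difference between miR-19a and miR-20a was 0.45 ± 0.70 (SD, n = 12) and that between miR-20a and miR-93 was 0.13 ± 0.54 (SD, n = 12), so that these neighbours did not differ beyond their spread. These values share the limit of assay efficiency given above, and those of miR-19b and miR-92a can hold RNA from a second locus.

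**Figure D1:**
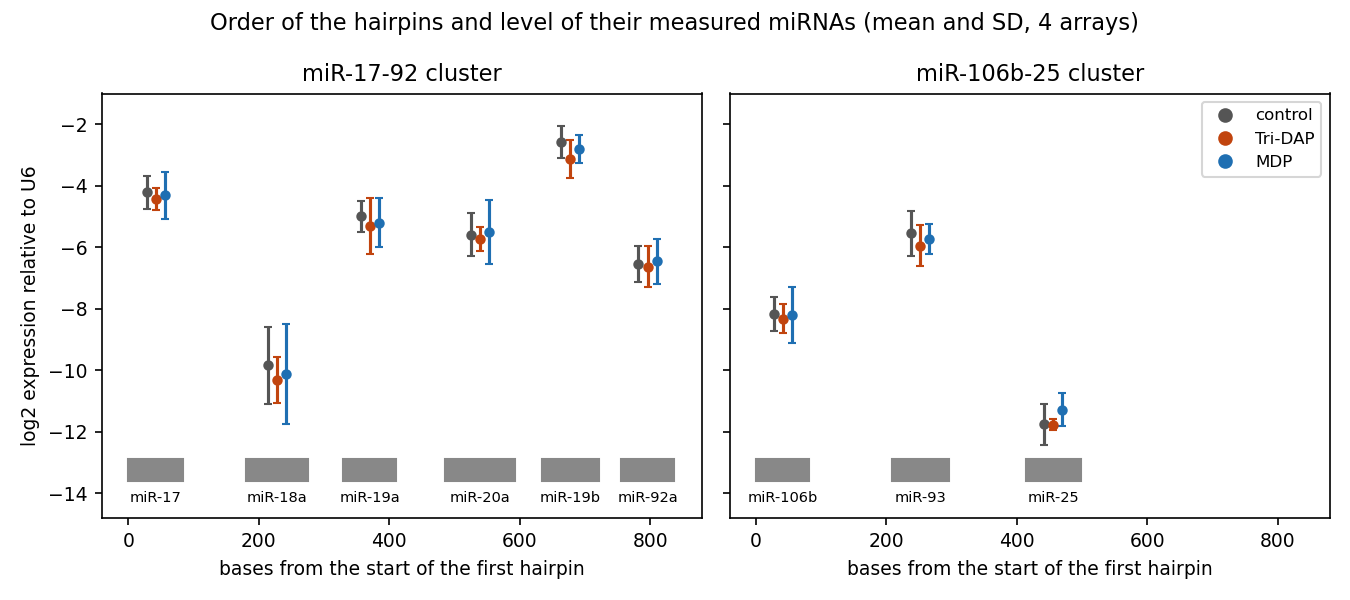
Mean log2 expression relative to U6 of each member, with SD over 4 arrays per group, against the position of its hairpin (grey boxes) in bases from the start of the first hairpin. Within miR-17-92 the control means run from -9.84 for miR-18a to -2.57 for miR-19b, and within miR-106b-25 from -11.76 for miR-25 to -5.55 for miR-93.

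The members were then compared between stimulated and control cells as log2 expression relative to U6, the deposited difference of Ct from U6 with the sign turned. MiR-19b, which shares its seed with miR-19a, had the largest difference from control of all members after Tri-DAP. Its values were -2.0, -3.21, -2.40 and -2.68 on control arrays 4, 7, 10 and 13, -2.84, -2.66, -2.93 and -4.03 on TD arrays 5, 8, 11 and 14, and -2.25, -3.35, -2.89 and -2.67 on MDP arrays 6, 9, 12 and 15. The 3 groups overlapped, and TD array 14, the array with the earliest U6, was the lowest of all 12. The log2 fold change was -0.54 ± 0.53 (SE, n = 4 against 4) after Tri-DAP, with a 95% interval from -1.70 to 0.61 and p = 0.29 (two-sided exact permutation test). After MDP it was -0.22 ± 0.53 (SE, n = 4 against 4), from -1.36 to 0.92.

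MiR-17, the first miRNA of its transcript and a repressor of Cdkn1a, was measured at -4.37, -4.87, -4.0 and -3.63 on the control arrays, in the same order of arrays. On the TD arrays it was at -4.25, -4.25, -4.26 and -4.95, and on the MDP arrays at -3.90, -5.41, -4.21 and -3.70. TD array 14 lay apart from the other TD arrays, MDP array 9 was the lowest of all, and the groups overlapped. The means were -4.22 ± 0.53 for control, -4.43 ± 0.35 for Tri-DAP and -4.31 ± 0.77 for MDP (SD, n = 4 each), a log2 fold change of -0.21 after Tri-DAP (95% interval -1.40 to 0.97) and of -0.09 after MDP (-1.27 to 1.08).

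MiR-18a had the widest spread. Its control values were -9.58, -11.69, -9.15 and -8.95, its TD values -9.90, -11.36, -9.67 and -10.30, and its MDP values -9.65, -12.53, -9.39 and -8.95. In each group 1 array lay below the other 3, namely control array 7, TD array 8 and MDP array 9. The log2 fold changes were -0.46 ± 0.86 (SE, n = 4 against 4) after Tri-DAP and -0.29 ± 0.86 (SE, n = 4 against 4) after MDP. Without these 3 arrays they were -0.73 ± 0.52 and -0.10 ± 0.51 (SE, n = 3 against 3).

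MiR-25, which shares its seed with miR-92a, had the largest difference after MDP. It was at -12.61, -11.68, -11.74 and -11.00 on the control arrays, at -11.78, -11.52, -11.79 and -11.98 on the TD arrays and at -11.35, -11.83, -11.42 and -10.55 on the MDP arrays. The lowest and the second-highest of the 12 values were both control arrays. The log2 fold change after MDP was 0.47 ± 0.52 (SE, n = 4 against 4), with a 95% interval from -0.65 to 1.59 and p = 0.37 (two-sided exact permutation test), and after Tri-DAP it was -0.01 (-1.13 to 1.12).

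The groups of the other 5 members also overlapped. MiR-19a had means of -4.99 ± 0.51 in control, -5.32 ± 0.90 after Tri-DAP and -5.20 ± 0.81 after MDP (SD, n = 4 each). MiR-20a had means of -5.59, -5.74 and -5.52, miR-92a of -6.54, -6.64 and -6.45, miR-106b of -8.18, -8.32 and -8.20, and miR-93 of -5.55, -5.95 and -5.73, for control, Tri-DAP and MDP in that order. Each of these means differed from control by less than the SD of the control arrays. For these 5 members the log2 fold changes ran from -0.40 to -0.10 after Tri-DAP and from -0.21 to 0.08 after MDP.

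**Figure D2:**
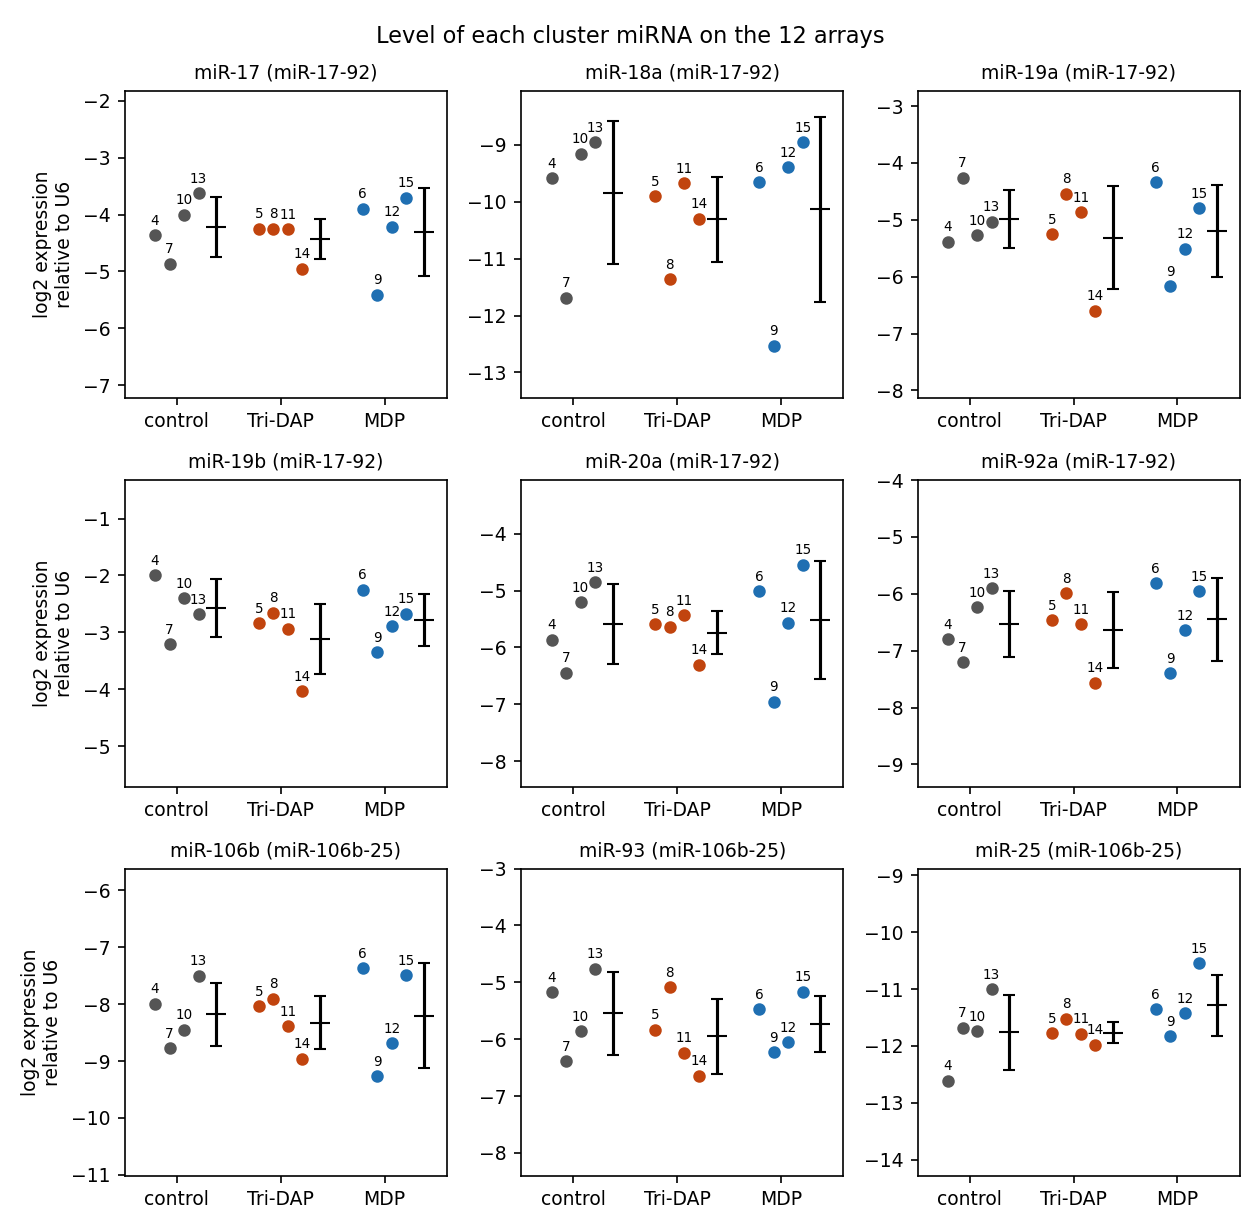
Log2 expression relative to U6 of the 9 members on each array, with array numbers from the labels and, at the right of each group, the mean and SD of 4 arrays. The groups overlap in every panel, control array 7 is the lowest control for 7 members, MDP array 9 the lowest MDP array for all 9, and TD array 14 the lowest TD array for 8.

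Counted together, 0 of the 9 members were called after Tri-DAP, at an unadjusted p under 0.05 by limma, where 4 of all 237 miRNAs tested, or 1.69%, were called. After MDP 0 of 9 passed, against 3 of 244 (1.23%), and for MDP against Tri-DAP 0 of 9, against 7 of 241 (2.90%). With Benjamini-Hochberg adjustment over all miRNAs tested, the smallest adjusted p of a member from limma was 0.998 after Tri-DAP, 1.0 after MDP and 0.998 between the ligands. No member had a mean more than 2-fold from the other group in any of the 3 comparisons, which 19.8%, 16.4% and 18.3% of all miRNAs tested had. The median half-width of the members' 95% intervals was 1.25 on the log2 scale in each comparison, so that changes of 2-fold lie inside most of them and a lack of calls does not show that the levels were equal.

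The side of control on which the members lay depended on the reference. Relative to U6 all 9 were below control after Tri-DAP, as were 75.1% of all miRNAs tested, and the members' median log2 fold change of -0.21 was close to the median over all miRNAs of -0.24. Relative to the mean of the 174 miRNAs present on every array, 4 members were below and 5 above control, with a median of 0.02 against 0.01 over all miRNAs. After MDP 6 members were below control relative to U6, as were 54.1% of all miRNAs, and the members' median was -0.09 against -0.02. Between the ligands 0 of 9 were lower after MDP relative to U6 (25.3% of all), but 5 of 9 relative to the mean of the miRNAs. Both ligands were compared with the same 4 control arrays, so the 2 sets of fold changes are not independent.

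**Figure D3:**
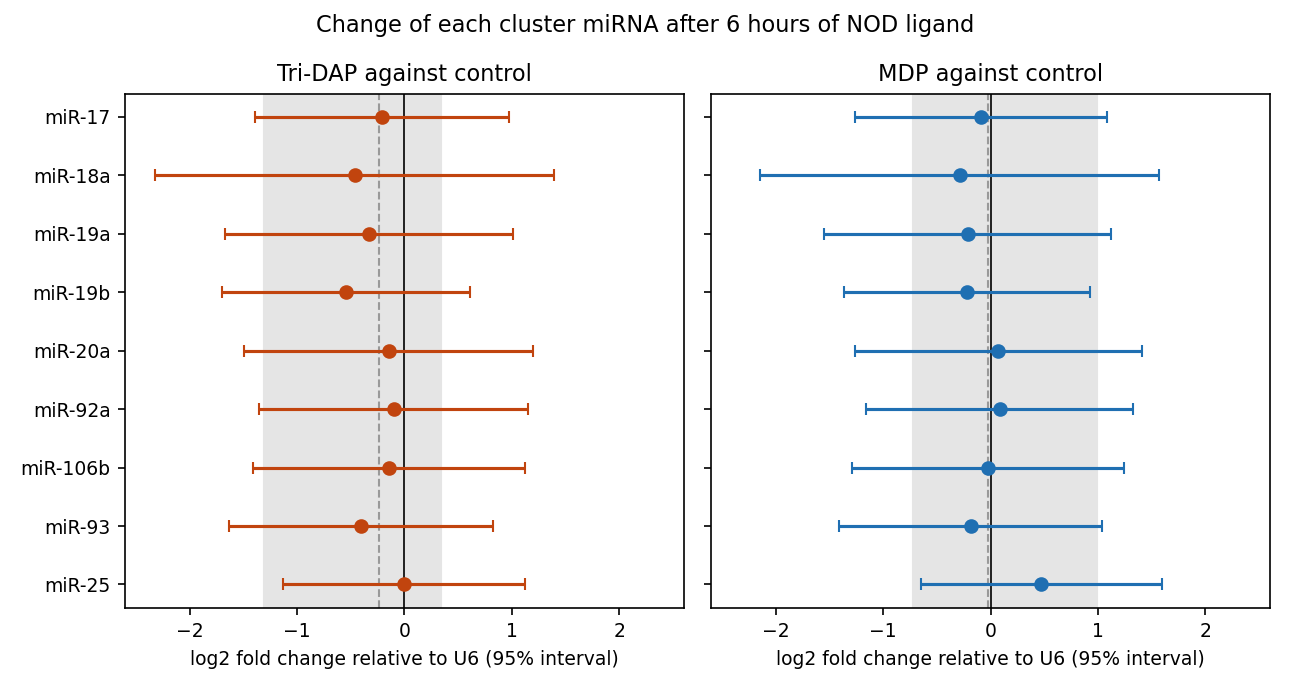
Log2 fold change of each member relative to U6 after Tri-DAP (left) and MDP (right) with its 95% interval from limma, against the 10th to 90th percentile (grey band) and median (dashed line) of all miRNAs tested. All 18 intervals include 0, and all point estimates lie inside the grey bands, which run from -1.31 to 0.34 after Tri-DAP and from -0.72 to 0.99 after MDP.

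Differences between members of one cluster on the same array do not depend on any reference RNA, and address whether a ligand changed the balance of miRNAs cut from one transcript. There are 15 such pairs in miR-17-92 and 3 in miR-106b-25, which gave 36 comparisons with control. Pairs that include miR-19b or miR-92a can also hold RNA from their second locus, so they do not address one transcript alone. None of the 36 had an unadjusted p under 0.05 (two-sided exact permutation test, smallest p = 0.17, smallest possible p 0.029), and the smallest Benjamini-Hochberg adjusted p was 0.97 in these exact tests. The median absolute change of a pair was 0.21 cycles. The largest was that of miR-25 against miR-93, whose Ct difference was 6.21 ± 0.91 cycles in control and 5.56 ± 0.24 after MDP (SD, n = 4 each), a change of -0.66 cycles with p = 0.23 (exact permutation test). Next to it, miR-25 against miR-106b changed by -0.50 cycles after MDP, from 3.58 ± 0.74 to 3.09 ± 0.63 (SD, n = 4 each). The groups overlapped in all 36 comparisons.

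The same changes were also taken within runs of consecutive label numbers (4 to 6, 7 to 9, 10 to 12 and 13 to 15), which hold 1 array of each group, are not stated as sets in the labels or methods and were chosen after the data were seen. Within these 4 runs miR-25 against miR-106b changed after MDP by -0.64, -0.34, -0.56 and -0.45 cycles, a mean of -0.50 ± 0.13 (SD, n = 4 runs). The change had one sign in all 4 runs in 3 of the 36 comparisons. The other two were both after Tri-DAP, with miR-18a later against miR-17 by 0.43, 0.29, 0.27 and 0.02 cycles and miR-19b by 0.96, 0.07, 0.27 and 0.03 cycles. An exact sign-flip test over 4 runs cannot go below p = 0.125, so these values are given with no test. With either sign equally likely in each run, a share of 0.125 of comparisons would have one sign in all 4 runs. The 3 of 36 do not exceed that share.

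Some pairs were held closely across arrays and others were not. MiR-20a, which differs from miR-17 at 2 bases, was 0.84 to 1.58 cycles later than miR-17 on all 12 arrays, and miR-92a was 1.74 to 2.61 cycles later. MiR-18a was 5.15 to 5.75 cycles later than miR-17 on 9 arrays, but 6.82 on control array 7, 7.12 on TD array 8 and 7.12 on MDP array 9. MiR-19a ran from 0.61 cycles before miR-17, on control array 7, to 1.64 after it, on TD array 14.

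**Figure D4:**
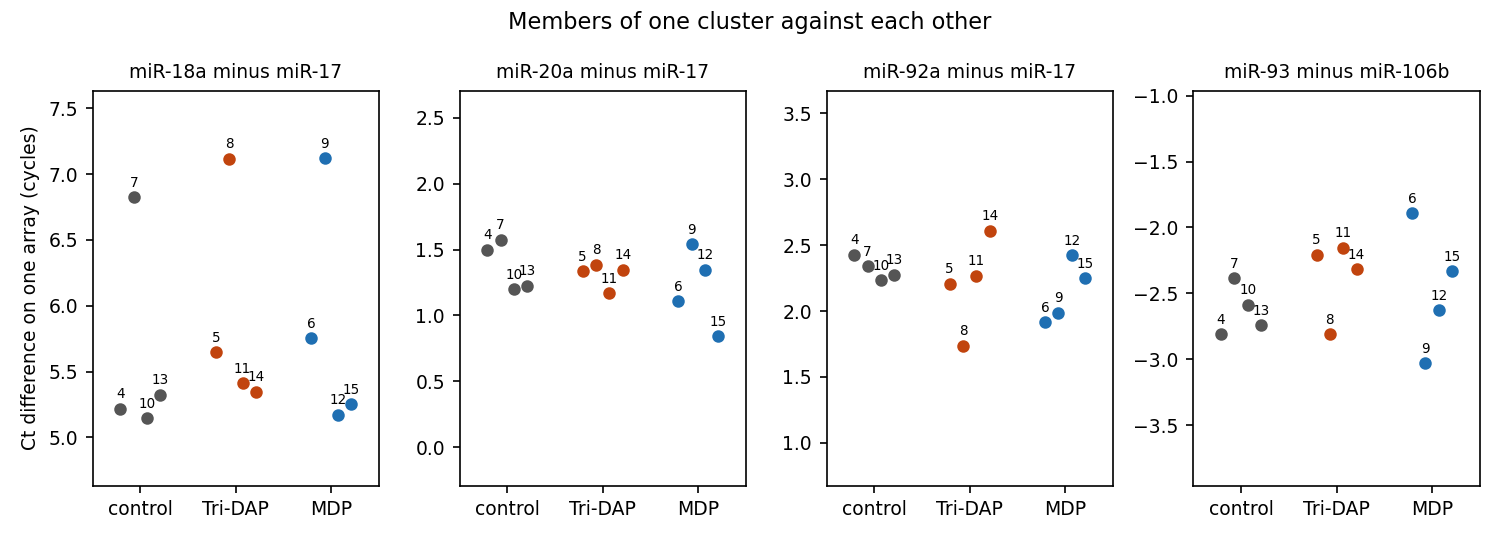
Difference in Ct between members of one cluster on the same array, in cycles, for 4 pairs, with array numbers from the labels. MiR-18a lies 6.82 to 7.12 cycles after miR-17 on control array 7, TD array 8 and MDP array 9 and 5.15 to 5.75 after it on the other 9, while miR-20a stays within 0.84 to 1.58 of miR-17 on all 12.

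Control array 7, TD array 8 and MDP array 9 were also compared with the other 9 arrays. To set aside the shared U6 value, each member was taken relative to the mean of the 174 miRNAs on all arrays. On that scale miR-18a was at -2.71, -3.27 and -3.21 on control array 7, TD array 8 and MDP array 9, and between -1.24 and 0.41 on the other 9 arrays. MiR-20a was at 2.54, 2.46 and 2.37 on those 3 arrays and between 3.02 and 4.29 on the others. MiR-17 was at 4.11, 3.85 and 3.91 against 4.51 to 5.58, and miR-106b of the other cluster at 0.20, 0.19 and 0.06 against 0.90 to 1.33.

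For 5 of the 9 members (miR-17, miR-18a, miR-19b, miR-20a and miR-106b) all 3 arrays lay below all other 9, as they did for 16 of the 174 miRNAs, or 9.20%. The 3 arrays were set apart after the members' values had been seen, so these counts are a description. The mean differences of these 3 arrays from the other 9 were -2.77 for miR-18a, -1.38 for miR-20a, -1.11 for miR-17, -0.96 for miR-106b, -0.84 for miR-92a, -0.74 for miR-19b, -0.62 for miR-93, -0.51 for miR-25 and -0.17 for miR-19a, on the log2 scale. All 9 were negative, while the median over the 174 miRNAs was 0.25. In the unnormalized Ct the 3 arrays were later than all others for 7 of 9 members (19.0% of the 174), relative to snoRNA202 they were lower for 6 (17.2%), and relative to U6 for 1, miR-18a (2.87%). The mean Ct of the 174 miRNAs was itself later on these arrays, 29.0, 29.7 and 29.3 against 28.2 to 28.8.

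**Figure D5:**
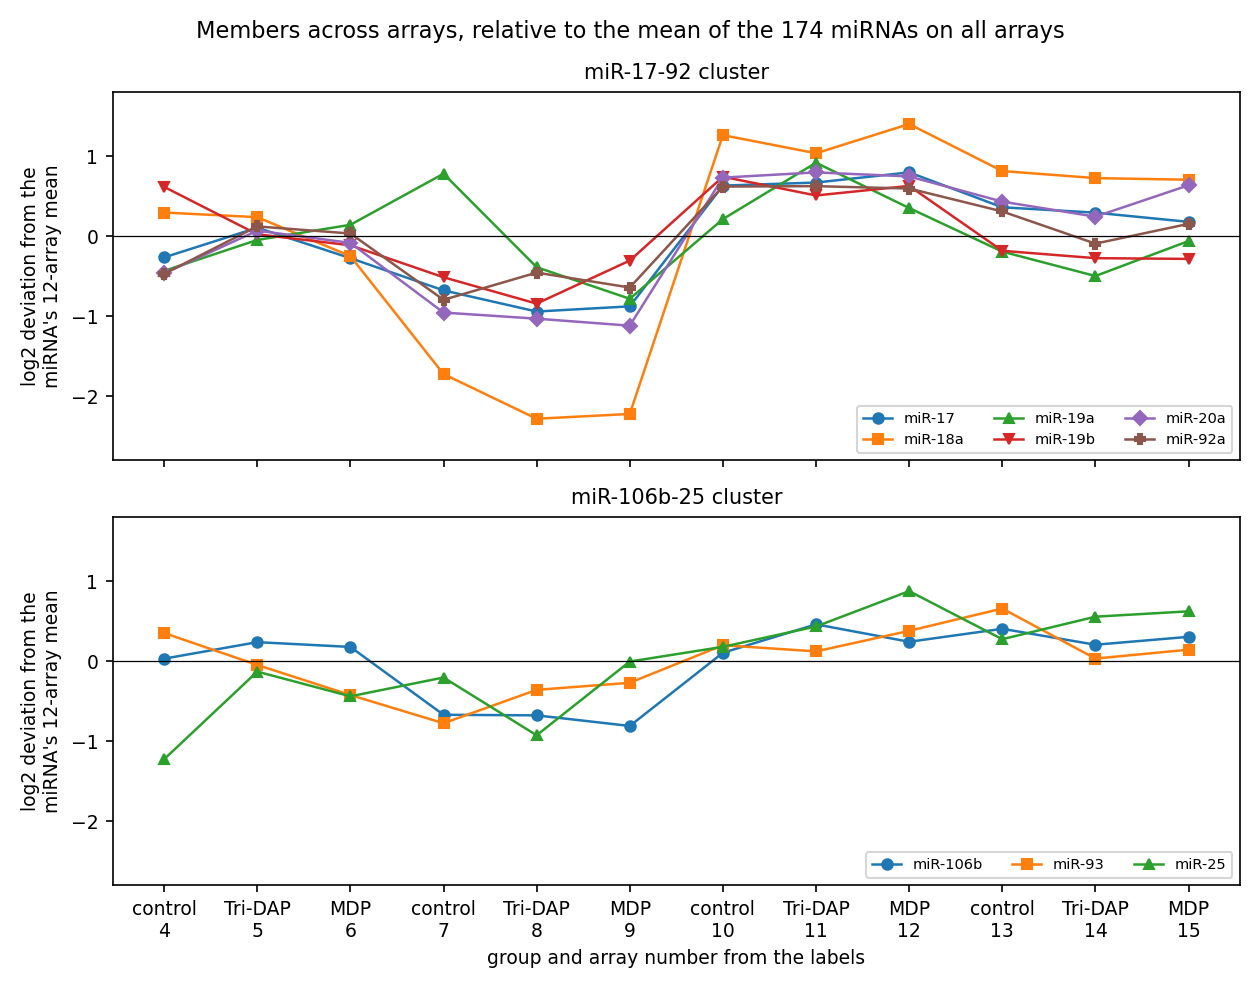
Deviation of each member from its own 12-array mean, on the log2 scale relative to the mean of the 174 miRNAs on all arrays, for the 12 arrays in the order of their label numbers. MiR-18a lies lowest on control array 7, TD array 8 and MDP array 9, miR-17, miR-20a and miR-106b lie together there, and miR-19a does not follow on control array 7.

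Some markers of other cell types also differed on these arrays. Of 5 mural and muscle miRNAs, 2 were measured on all arrays, miR-143 and miR-145, and both were lower on control array 7, TD array 8 and MDP array 9 than on all others. The rest of that list could not be compared in this way, being undetermined on some of the arrays. MiR-1 was measured on 1 of the 3 arrays (Ct 32.1) and on 7 others (27.7 to 34.3). MiR-133a was measured on 1 of the 3 (Ct 35.4) and on 5 others (31.6 to 34.9), and miR-133b on 0 and 1. MiR-145, abundant in smooth muscle cells and pericytes, was at Ct 31.8 to 33.1 there and at 23.1 to 30.3 elsewhere. Among the others it was at 29.3 to 30.3 on arrays 4 to 6. It was at 27.0 to 28.0 on arrays 10 to 12 and 23.1 to 23.5 on arrays 13 to 15. MiR-143 was at 30.2 to 30.6 on the 3 arrays. On the other runs it was at 28.2 to 29.2, 27.0 to 27.4 and 24.8 to 25.0 in the same order. These 2 miRNAs thus also differed between the other runs. The log2 sum of that list was -0.80 to -0.38 on the 3 arrays and 1.06 to 5.52 on the other 9, relative to the mean of the miRNAs. The sum of 6 epithelial miRNAs was -2.96 to -0.46 against -0.94 to 3.17. The sum of the 2 endothelial miRNAs was 9.90 to 10.3 against 8.11 to 10.1, and that of 4 leukocyte miRNAs was -0.34 to -0.01 against -1.44 to 0.10, with miR-142-3p measured on the other 9 arrays and undetermined on these 3. In these bulk samples fewer cells of a type and less RNA per cell cannot be told apart, and the part of other cell types in the members' levels was not tested.

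Without control array 7, TD array 8 and MDP array 9, 0 of 9 members were called in any comparison. Relative to U6 the members' log2 fold changes were then -0.97 to -0.06 after Tri-DAP and -0.30 to 0.68 after MDP, with medians of -0.49 and 0.13 beside -0.56 and 0.12 over all miRNAs. For MDP against Tri-DAP they were 0.55 to 0.74, with a median of 0.67 beside 0.67 over all miRNAs, where all 12 arrays had given 0.11 to 0.48. A fit with a term for each of the runs of consecutive label numbers, relative to the mean of the miRNAs, gave the members a median SE of 0.18 after Tri-DAP, beside 0.58 relative to U6 without that term. The term alone, relative to U6, gave 0.56, and the mean of the miRNAs as reference without the term gave 0.42. The fit described next has both. In that fit the members' log2 fold changes were -0.31 to 0.23 after Tri-DAP and -0.25 to 0.51 after MDP, again with 0 of 9 called, and the 95% interval of miR-17 was -0.35 to 0.39 after Tri-DAP and -0.43 to 0.32 after MDP. In both settings more of all miRNAs were called than with all 12 arrays relative to U6 without that term (counts in the last section). They were still a small share of those tested, so 0 of 9 does not set the members apart.

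Across the 12 arrays, relative to the mean of the miRNAs, most members of miR-17-92 varied together. The 15 pairs had a median Pearson r of 0.71, with a range from 0.30 to 0.97, and over the 9 other arrays alone their median was 0.63. MiR-17 and miR-20a had r = 0.97 (0.90 over the 9 arrays), miR-17 and miR-18a r = 0.96 (0.94), and miR-17 and miR-92a r = 0.92 (0.87). MiR-19a had r between 0.30 and 0.41 to the other 5 members, but between 0.39 and 0.79 over the 9 arrays, where miR-19b had 0.16 to 0.48, so that the place of miR-19a rests on the 3 arrays. The 3 pairs of miR-106b-25 had a median of 0.47 and the 18 pairs between the clusters one of 0.66, but over the 9 other arrays these medians were 0.21 and 0.45. Over all 15051 pairs of the 174 miRNAs the median was 0.01. The values of one array share its RNA, its reverse transcription and its card, so these are descriptions over 12 arrays of 3 groups. The 9 other arrays also differed by run of consecutive label numbers. The mean of miR-17-92 was 3.223 to 3.429 on arrays 4 to 6 and 4.044 to 4.102 on arrays 10 to 12. Arrays 13 to 15 overlapped arrays 4 to 6 and lay below arrays 10 to 12. Each r over the 9 arrays, here and below, therefore still includes differences between runs, and r within runs was not tested.

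Of the 165 miRNAs outside the clusters measured on all arrays, miR-106a was the most like the mean of miR-17-92 (r = 0.93, n = 12 arrays), followed by miR-15b (0.92) and miR-15a (0.90). Over the 9 other arrays their r was 0.80, 0.94 and 0.75, or ranks 9, 3 and 12 of 165, so that this order was not kept. MiR-20b, of the same cluster as miR-106a, had r = 0.58 (rank 19), and 0.56 over the 9 arrays (rank 28). Reading of miR-17 by the miR-106a assay was not tested. MiR-322 (0.94), miR-218 (0.93) and miR-532-5p (0.89) were the most like the mean of miR-106b-25, with 0.85, 0.95 and 0.95 over the 9 arrays (ranks 6, 2 and 1). Relative to U6, r to the cluster means was 0.90, 0.91 and 0.68 for the first 3 and 0.55, 0.76 and 0.55 for the others, a scale on which all miRNAs of an array share its U6 value. Relative to the mean of the miRNAs, the markers miR-143, miR-429 and miR-145 had r = 0.86, 0.85 and 0.83 to miR-106b-25. Over the 9 arrays they had 0.76, 0.75 and 0.71. MiR-223, miR-126-3p, miR-150 and miR-126-5p had 0.16, -0.50, -0.58 and -0.62 over 12 arrays. To miR-17-92 miR-143, miR-429 and miR-145 had 0.63, 0.65 and 0.61, but 0.17, 0.26 and 0.12 over the 9 arrays.

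The relatives of the clusters were measured unevenly. MiR-106a, the counterpart of miR-17 in the miR-106a-363 cluster, was measured on all 12 arrays at Ct 23.7 to 26.4, and miR-20b of the same cluster on all 12 at 27.7 to 31.2. MiR-363 was measured on 3 arrays and miR-18b on 2, both from that cluster too. Of the miRNAs elsewhere with the seed of miR-92a, miR-32 was measured on 11 arrays at Ct 33.1 to 35.5, and miR-367 on 12 at 27.7 to 36.7. Printed with their seeds, the 2 most abundant relatives differ from miR-17 only outside it.
miR-106a: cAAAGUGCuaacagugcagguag
miR-20b: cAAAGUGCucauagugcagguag

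Of the 4 relatives tested, 0 were called in any comparison. Over all miRNAs tested 1.69% were called after Tri-DAP, 1.23% after MDP and 2.90% between the ligands. The log2 fold changes after Tri-DAP were -0.32 ± 0.55 for miR-106a, -0.60 ± 0.66 for miR-20b, 0.57 ± 0.78 for miR-32 and 1.14 ± 1.70 for miR-367 (SE, n = 4 against 4, for miR-32 4 against 3). After MDP they were 0.02 ± 0.55, -0.51 ± 0.66, 0.54 ± 0.78 and 1.05 ± 1.70 in the same order.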

How the data were processed

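RNA of 12 samples, 4 per group by the labels, was measured on TLDAs (rodent set A). Per the methods, the authors reverse-transcribed total RNA with a rodent primer pool and ran 40 cycles with an automatic threshold. The authors deposited Ct values in cycles, with 40 where no threshold was reached, and normalized values on a log2 scale, the Ct minus the mean of the 4 U6 wells of the array, which was checked and held to within 5.33e-15 cycles. Fold changes of the authors and 12 unnamed columns were not used.

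Here the sign of the normalized values was turned so that higher means more RNA, and wells at 40 were set missing. A miRNA with at least 2 measured values in both groups was tested, the 9 members among 335 mouse and 40 rat assays. All 12 arrays entered one fit with limma 3.58.1 in R 4.3.3 without a block. A call was an unadjusted p under 0.05, with Benjamini-Hochberg adjusted p beside it. Single values were also tested by two-sided exact permutation over arrays (scipy 1.17.1). The paper reports 4 independent cell isolations for the arrays, but the labels and methods do not say which arrays share an isolation. The p-values therefore measure the spread between these arrays and ignore any pairing by isolation. The fit was tested on simulated data. Alternatives were undetermined wells kept at 40, wells above Ct 35 set missing, other references, the filter, the groups in the fit, the test, and leaving out each array. The number of arrays limits the precision.

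The members and lists were chosen with earlier results of these data known. Named by rule were the members, their relatives by cluster or seed, U6 and snoRNA202, markers of cell types, and for each cluster the 3 other miRNAs most correlated with its mean. Sequences and positions are from RefSeq on GRCm38.p6.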

Additional observations from a re-analysis of the deposited data

Results flagged for a closer look

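In 5 of 81 groups of 4 arrays examined, over member levels and Ct differences between members, 1 array lay far from the other 3, and chance flags about 1 in 20. The log2 expression of miR-17 relative to U6 was -4.95 on TD array 14 and between -4.26 and -4.25 on the other TD arrays. That array had the earliest U6, at Ct 18.3, with an SD of 1.93 cycles over its 4 U6 wells. The other 4 involve miR-18a. Its Ct minus that of miR-17 was 6.82 on control array 7, where the other controls gave 5.15 to 5.33, and 7.12 on TD array 8, where the other TD arrays gave 5.35 to 5.65. On control array 7 the Ct of miR-19a minus that of miR-18a was -7.43, against -4.20 to -3.88, and the Ct of miR-92a minus that of miR-18a was -4.48, against -3.05 to -2.79. These differences share the well of miR-18a and are not independent of each other.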

How the results depend on the processing

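No member was called in any alternative, the smallest unadjusted p being 0.12 after Tri-DAP, 0.11 after MDP and 0.095 between the ligands (limma or the methods' t-test). Of 225 member values per comparison, 199, 196 and 196 kept their sign, and the cause of the changes was not tested beyond the shift of the reference itself. Relative to the mean of the miRNAs, with and without the term for consecutive numbers, the sign turned after Tri-DAP for miR-17 (0.0195), miR-20a (0.0837), miR-92a (0.13), miR-106b (0.0887) and miR-25 (0.23), after MDP for miR-106b (0.0111), and between the ligands for miR-17 (-0.0759), miR-18a (-0.0204), miR-19a (-0.0834), miR-92a (-0.0144) and miR-106b (-0.0777). Without normalization it turned after Tri-DAP for miR-92a (0.0158) and miR-25 (0.11), and between the ligands for miR-17 (-0.008), miR-19a (-0.0155) and miR-106b (-0.0098). With U6 and snoRNA202 it turned for miR-25 after Tri-DAP (0.0514). With the median of the U6 wells it turned after MDP for miR-17 (0.16), miR-19a (0.0335), miR-19b (0.0282), miR-106b (0.22) and miR-93 (0.0615), and the median over all miRNAs moved from -0.02 to 0.22. Without control array 7, TD array 8 and MDP array 9 it turned after MDP for miR-17 (0.0607), miR-19a (0.35) and miR-106b (0.13). Leaving out 1 array in turn, the sign turned for miR-19a (-0.58 to 0.099), miR-20a (-0.43 to 0.0967), miR-92a (-0.32 to 0.21), miR-106b (-0.34 to 0.082) and miR-25 (-0.29 to 0.25) after Tri-DAP, for miR-17 (-0.31 to 0.28), miR-18a (-0.90 to 0.51), miR-19a (-0.50 to 0.11), miR-20a (-0.25 to 0.55), miR-92a (-0.14 to 0.40), miR-106b (-0.30 to 0.33) and miR-93 (-0.47 to 0.0774) after MDP, and for miR-17 (-0.0799 to 0.49), miR-18a (-0.22 to 0.98), miR-19a (-0.31 to 0.44), miR-20a (-0.10 to 0.70), miR-92a (-0.13 to 0.50), miR-106b (-0.16 to 0.47) and miR-93 (-0.0128 to 0.50) between the ligands, where the brackets give the lowest and highest log2 fold changes.

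The number of all miRNAs called moved from 4 after Tri-DAP to 7 without normalization and to 1 with all 12 arrays required, and from 3 after MDP to 5 with U6 and snoRNA202, the miRNA mean or only the 2 groups, 6 with the U6 median, 0 with all arrays required and 1 with the methods' t-test. Between the ligands it moved from 7 to 2 with undetermined wells at Ct 40, 4 with a Ct limit of 35, 11 with the U6 median, 0 with all arrays required and 4 with the methods' t-test. Without the 3 arrays that stood apart the counts were 12 of 224, 5 of 230 and 14 of 226 miRNAs tested. With the term for consecutive numbers they were 10 of 236, 6 of 243 and 8 of 238, and with that term and the miRNA mean 15, 12 and 16 of the same numbers. These 3 settings were chosen after seeing the data. Leaving out 1 array in turn, the counts ran from 1 to 12 after Tri-DAP, from 1 to 7 after MDP and from 2 to 17 between the ligands, the highest of each without TD array 8. Other single arrays moved them to 1 without TD array 5 and 7 without control array 7 after Tri-DAP, to 5 without MDP array 9 or control array 13 and 1 without MDP array 15 after MDP, and between the ligands to 3 without TD array 5 or MDP array 15, 4 without MDP array 6 and 2 without TD array 14. No paired analysis was possible because the number of each array in the labels occurs only once and the sources do not tie arrays to an isolation. The term for consecutive numbers is an assumed pairing. Differences between members of a cluster were recomputed under the Ct limit, with 1 array left out and without the 3 arrays, each with 0 of 36 under p = 0.05 (exact permutation test). With 1 array left out the exact test of 3 against 4 cannot go below 0.057, and without the 3 arrays that of 3 against 3 cannot go below 0.10, so these last counts say nothing about stability.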
